A study of Mus musculus and Rattus norvegicus with 79 samples.

Results

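Liver enzymes that break down amino acids were followed by their mRNA: Tat, Tdo2, Hpd, Sds, Got1, Gpt2, Gls2, Agxt, Aass and Oat, 10 of the 24790 genes that the mouse count tables hold. They were taken by name, and a gene with several RefSeq transcript rows was represented by the row with the highest summed count over both mouse tables. RNA was sequenced from livers of mice trained to eat at night, and Zeitgeber time (ZT) counts the hours from the moment the lights come on. In C57BL/6 mice without virus, polyA libraries were made from fed livers at ZT13, ZT14, ZT18 and ZT22, and from unfed livers at those hours and ZT10, 27 libraries in 9 groups of 3. In Nr3c1fl/fl mice, whose glucocorticoid receptor gene Nr3c1 carries loxP sites in every group, libraries depleted of ribosomal RNA were made 10 days after injection of AAV-tbg-CRE or AAV-tbg-GFP, 36 libraries in 12 groups of 3. The tbg promoter is active in hepatocytes, so CRE removes the floxed part of Nr3c1 in these cells and other liver cells keep the gene, and GFP livers are the control. In both virus arms livers of ZT10 and ZT12 were unfed, and livers of the 4 later times, from ZT13 on, were fed. GR was immunoprecipitated at ZT10 from chromatin of unfed CRE, GFP and C57BL/6 livers, with input from C57BL/6 livers, and 3 peak lists were used. The labels do not say from which of these libraries each list was called. The rat hepatocyte libraries of the series were not used here.

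The liver takes up a large share of dietary amino acids and strips their amino groups by transamination or dehydration, sending nitrogen to urea and the carbon skeletons to glucose, ketone bodies or oxidation. In fasting the same enzymes release carbon from body protein for glucose production. Glucocorticoids, which act through GR, and glucagon are the classical inducers of this program, and the mRNAs of Tat and Tdo2 are textbook targets of glucocorticoids in rat liver.

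The 10 genes fall into roles that order the results. Tat (tyrosine aminotransferase) and Hpd (hydroxyphenylpyruvate dioxygenase) catalyse consecutive steps of tyrosine breakdown, and Tdo2 (tryptophan dioxygenase) opens the kynurenine pathway of tryptophan. Sds (serine dehydratase) turns serine into pyruvate. Got1 (cytosolic aspartate aminotransferase), Gpt2 (mitochondrial alanine aminotransferase) and Gls2 (liver-type glutaminase) connect aspartate, alanine and glutamine with glutamate. Aass (aminoadipate semialdehyde synthase) begins lysine breakdown, Oat (ornithine aminotransferase) converts ornithine in mitochondria, and Agxt (alanine-glyoxylate aminotransferase) removes glyoxylate.

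The genes lie on 8 mouse chromosomes. In GRCm38.p6 coordinates, which are those of mm10, Tat (NM_146214) spans chr8:109986078-109999804 and Gpt2 (NM_173866) chr8:85492576-85528902. Hpd (NM_008277) lies at chr5:123171807-123182723 and Sds (NM_145565) at chr5:120476547-120483932. The other genes stand alone on their chromosomes among the 10: Tdo2 (NM_019911) at chr3:81958412-81975728, Got1 (NM_010324) at chr19:43499752-43524605, Gls2 (NM_001285779) at chr10:128194635-128210004, Agxt (NM_016702) at chr1:93135240-93145421, Aass (NM_013930) at chr6:23072173-23132986 and Oat (NM_016978) at chr7:132557475-132576398. The RefSeq promoter table of the same build held 8 of the 10 genes, without Sds and Gls2. Below are the 250 bases before the annotated start of 4 genes whose mRNA was lower both in fed and in CRE livers (Tat, Got1, Aass, Tdo2) and of Oat, whose mRNA was higher in CRE livers, 5′ to 3′ on the gene's strand, with the letters CCAAT or their reverse complement ATTGG in capitals:
Tat (chr8:109990186-109990435, plus strand): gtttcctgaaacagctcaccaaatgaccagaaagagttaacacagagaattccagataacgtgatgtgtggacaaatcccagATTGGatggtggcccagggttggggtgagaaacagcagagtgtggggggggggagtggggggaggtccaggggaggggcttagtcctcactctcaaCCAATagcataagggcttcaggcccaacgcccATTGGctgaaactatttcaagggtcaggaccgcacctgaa
Got1 (chr19:43524606-43524855, minus strand): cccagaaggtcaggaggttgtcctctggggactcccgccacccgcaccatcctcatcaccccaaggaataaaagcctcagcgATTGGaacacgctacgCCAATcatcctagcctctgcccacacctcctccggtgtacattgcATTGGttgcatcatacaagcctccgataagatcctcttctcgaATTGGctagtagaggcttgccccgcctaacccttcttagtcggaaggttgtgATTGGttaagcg
Aass (chr6:23132987-23133236, minus strand): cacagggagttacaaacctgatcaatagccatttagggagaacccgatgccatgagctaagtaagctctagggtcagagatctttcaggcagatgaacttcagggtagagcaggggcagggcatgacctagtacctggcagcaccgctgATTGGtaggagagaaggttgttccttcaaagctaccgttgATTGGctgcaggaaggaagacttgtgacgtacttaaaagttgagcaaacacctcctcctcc
Tdo2 (chr3:81975729-81975978, minus strand): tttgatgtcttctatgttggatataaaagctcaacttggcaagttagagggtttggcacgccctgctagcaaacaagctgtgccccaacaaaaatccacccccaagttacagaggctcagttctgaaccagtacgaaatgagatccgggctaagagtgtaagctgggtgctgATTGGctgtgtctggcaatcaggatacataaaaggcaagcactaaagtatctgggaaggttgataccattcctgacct
Oat (chr7:132576399-132576648, minus strand): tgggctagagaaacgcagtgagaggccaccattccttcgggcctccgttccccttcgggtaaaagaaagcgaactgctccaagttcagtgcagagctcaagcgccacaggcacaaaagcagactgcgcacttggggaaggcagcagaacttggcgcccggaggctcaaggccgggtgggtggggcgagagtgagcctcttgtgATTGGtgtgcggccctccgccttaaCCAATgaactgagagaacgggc

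CCAAT is the core letters bound by the factor NF-Y, and it was put in capitals after the matches were counted, because more of the promoters held it than any other motif searched. Got1 had 5 matches, beginning 168, 152, 107, 64 and 12 bases before the start. Tat had 3, Aass and Oat 2 each and Tdo2 1, while Gpt2, Hpd and Agxt had none. The 5 promoters printed above are those with a match. Gpt2, on average also lower both in fed and in CRE livers, is not printed, so the display does not tie the motif to the direction of change. On either strand it stood in 5 of 8 member promoters and in 33.8% of all 32851 promoters of that length. The hexamer AGAACA or its reverse complement TGTTCT, an arm of the sequence GR binds, stood in 1 of 8 (Agxt), against 16.1% of all promoters. The paired form, AGAACA followed after 3 bases by TGTTCT, which contains both hexamers and reads alike on either strand, stood in 0 of 8, against 0.00913% of all. TATAAA on either strand stood in 1 of 8 (Tdo2), against 12.4%. The annotated gene interval of Tat begins upstream of the start used for its promoter.

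Libraries held 23.87 to 91.77 M counts in C57BL/6 and 34.64 to 78.76 M in Nr3c1fl/fl livers, and the smallest count of any of the 10 genes in a library was 882. Depth therefore did not limit detection of these mRNAs, and 10 of 10 passed the filter on low counts in both experiments. Of 9 hepatocyte markers 8 were tested and none was at 0 in any library, with summed levels of 80060 to 121023 CPM in fed and 76418 to 110045 CPM in unfed C57BL/6 livers at the 4 shared hours, so the labels' tissue matched its markers. CPM here are counts in each M of a library size summed over the genes that passed the filter and scaled by TMM factors. They carry no correction for transcript length, so levels are compared between samples and never between genes. Pancreatic transcripts stood at 419 CPM in unfed ZT18 replicate 3, against 13.1 to 33.8 CPM in the other fed and unfed libraries of the 4 hours, and bile duct markers at 105 CPM in fed ZT14 replicate 1. Results on ZT18 are given with and without these 2 libraries. Nothing in the labels says that replicates were taken on separate days or litters, and each was taken as 1 liver, so p-values measure the spread between these samples. In bulk liver, fewer cells of a type and less RNA per cell cannot be told apart.

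The C57BL/6 groups ask which of the enzymes respond to food when the hour is the same. Averaged over the 4 hours, 7 of the 10 mRNAs were lower in fed than in unfed livers and 0 were higher. Got1 fell by 0.71 ± 0.10 (log2 fold change ± SE, adjusted p = 6.54e-06), Sds by 0.61 ± 0.13 (adjusted p = 0.000668) and Tdo2 by 0.55 ± 0.08 (adjusted p = 2.91e-06). Tat fell by 0.39 ± 0.12, Aass by 0.32 ± 0.08, Gpt2 by 0.31 ± 0.07 and Hpd by 0.28 ± 0.07, with adjusted p between 0.0018 (Gpt2) and 0.0109 (Tat). Gls2 (-0.11 ± 0.06), Oat (-0.11 ± 0.09) and Agxt (0.09 ± 0.07) did not pass. These are edgeR quasi-likelihood tests with Benjamini-Hochberg adjustment over all 14744 genes tested, 12 libraries a side, and adjusted p under 0.05 counts as past the threshold. Of all genes tested 35.4% passed, 17.5% higher and 17.9% lower, and the median change of all genes was 0.0084, against -0.31 for the 10 enzymes. The 7 calls held in each of 24 fits that left out 1 library.

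**Figure D1:**
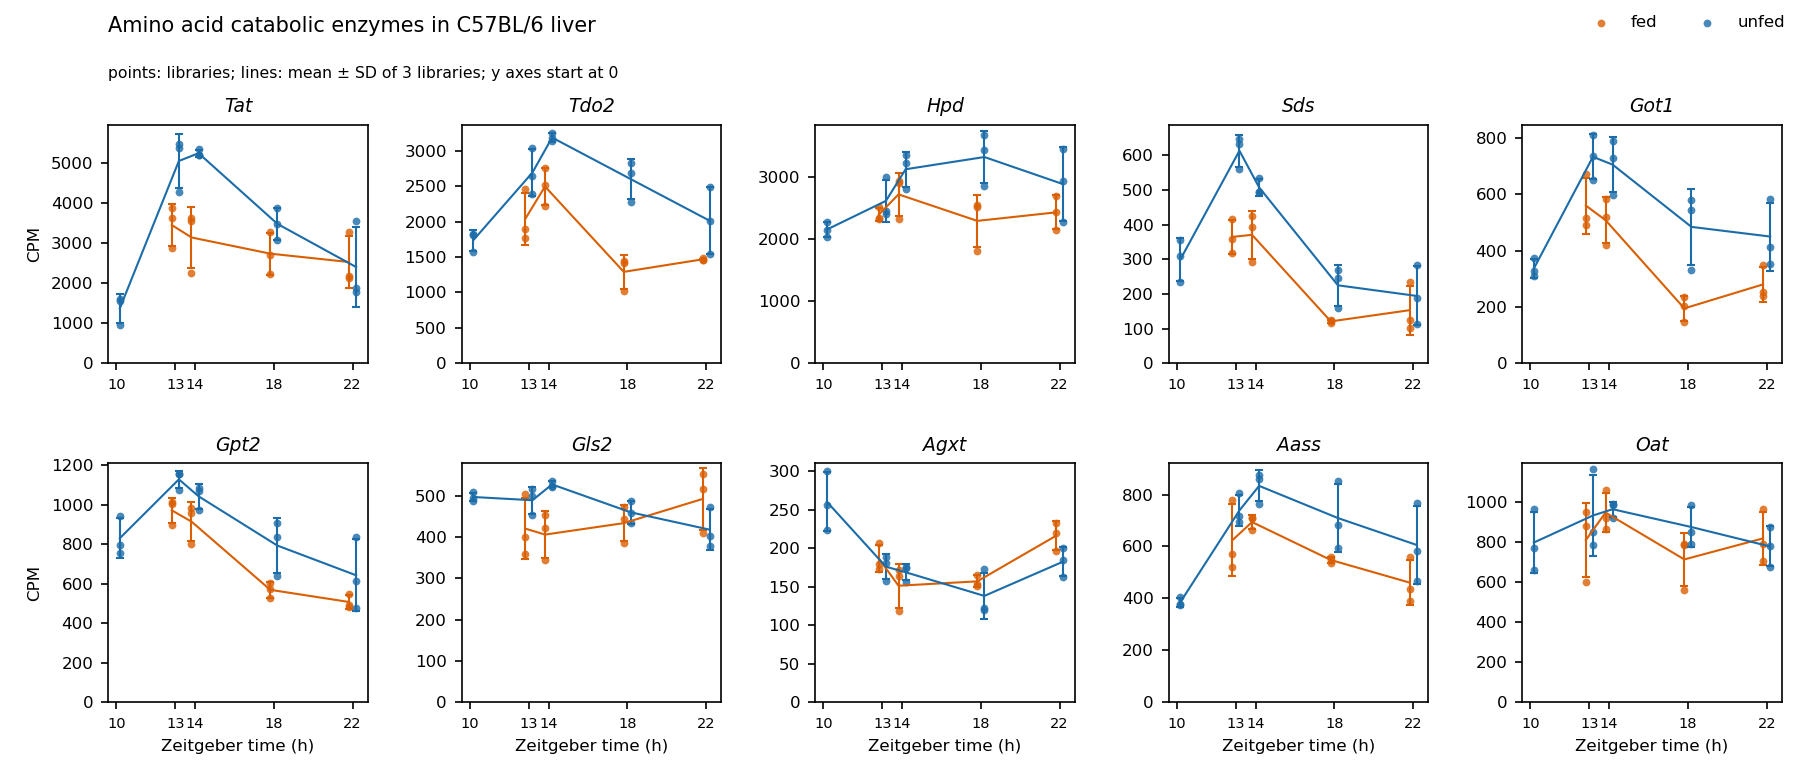
CPM of the 10 mRNAs in fed and unfed C57BL/6 livers against Zeitgeber time in hours; points are libraries and lines join means ± SD of 3 libraries. In the panel of Got1 the 3 fed livers at ZT18 sit between 148 and 235 CPM, all under the unfed livers of that hour.

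For the aromatic amino acids, Tdo2 showed the clearest separation. At ZT18 it was at 1014, 1411 and 1445 CPM in fed livers, against 2821, 2281 and 2689 CPM in unfed livers, a change of -1.01 ± 0.15 (adjusted p = 2.54e-05). At ZT22 it was at 1458, 1463 and 1478 CPM in fed livers, against 1542, 2009 and 2482 CPM in unfed livers (-0.46 ± 0.15, adjusted p = 0.0345). All fed livers were below all unfed livers at both hours, and the fed values at ZT22 lay within a narrow band while the unfed ones spread widely. The ZT22 call was lost in 5 of 6 fits that left out 1 library, with the smallest change, -0.27 (adjusted p = 0.279), without unfed replicate 3.

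Tat passed in the average and at no single hour. It was at 3614, 2863 and 3858 CPM in fed livers at ZT13, against 5372, 5474 and 4278 CPM in unfed livers, and at 2247, 3549 and 3610 CPM in fed livers at ZT14, against 5186, 5339 and 5179 CPM in unfed livers. The groups did not overlap at either hour, and neither change passed over all genes (-0.55 at ZT13, adjusted p = 0.303, and -0.74 at ZT14, adjusted p = 0.0643). By ZT22 the groups overlapped, at 2175, 3273 and 2122 CPM fed against 1879, 1766 and 3551 CPM unfed. Hpd passed at ZT18, with 1813, 2522 and 2547 CPM in fed livers against 3437, 2855 and 3676 CPM in unfed livers (-0.53 ± 0.15, adjusted p = 0.00796). That call was lost without fed replicate 1 (-0.38, adjusted p = 0.0886) and without unfed replicate 3 (-0.44, adjusted p = 0.0569).

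Serine and the transaminases moved the same way. Sds was at 124, 121 and 118 CPM in fed livers at ZT18, against 271, 158 and 246 CPM in unfed livers (-0.90 ± 0.26, adjusted p = 0.0133). Got1 was at 148, 235 and 202 CPM in fed livers at that hour, against 578, 329 and 545 CPM in unfed livers (-1.31 ± 0.21, adjusted p = 4.95e-05). Gpt2 was at 527, 575 and 606 CPM in fed livers, against 908, 638 and 835 CPM in unfed livers (-0.48 ± 0.15, adjusted p = 0.0167). None of these groups overlapped, and unfed replicate 2 was the lowest unfed library for each of the 10 genes. At ZT22 Got1 alone of the 3 passed, with 253, 350 and 237 CPM fed against 352, 413 and 584 CPM unfed (-0.68 ± 0.21, adjusted p = 0.0204). The ZT18 call of Sds was lost without unfed replicate 1 (-0.74, adjusted p = 0.0717) or 3 (-0.81, adjusted p = 0.0549). That of Gpt2 was lost without fed replicate 1 (-0.42, adjusted p = 0.0907), unfed replicate 1 (-0.37, adjusted p = 0.108) or unfed replicate 3 (-0.43, adjusted p = 0.0716). The ZT22 call of Got1 was lost without fed replicate 1 (-0.61, adjusted p = 0.0884), fed replicate 3 (-0.57, adjusted p = 0.104) or unfed replicate 3 (-0.44, adjusted p = 0.183).

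Aass passed in the average and at no single hour. It was at 546, 561 and 536 CPM in fed livers at ZT18, against 852, 594 and 682 CPM in unfed livers, without overlap. Its change was near the same at each hour, from -0.24 at ZT13 to -0.40 at ZT22. Gls2 was at 344, 421 and 453 CPM in fed livers at ZT14, against 536, 522 and 525 CPM in unfed livers, and at ZT22 at 515, 553 and 409 CPM fed against 379, 401 and 473 CPM unfed. Its direction thus differed between hours (-0.38 and 0.24), and the interaction of food and hour did not pass in edgeR (adjusted p = 0.098). Agxt stayed between 118 and 233 CPM in fed livers and between 119 and 200 CPM in unfed livers over the 4 hours, and Oat between 563 and 1060 CPM fed and 678 and 1165 CPM unfed.

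Counted by hour, 0 of 10 passed at ZT13 (1.10% of all genes), 0 at ZT14 (5.64%, of which 2.26% higher and 3.38% lower), 5 at ZT18, all lower (26.4% of all genes, 13.1% lower), and 2 at ZT22, both lower (20.2%, 9.77% lower). At an unadjusted p under 0.05 the edgeR counts at ZT13 and ZT14 were 3 and 4, and DESeq2 called 0 at both hours. The share of all genes at that unadjusted threshold was not counted, here or for the interaction, so such counts have no background beside them. In fits of the 2 compared groups alone, which estimate the spread from 6 libraries, 1 gene passed at ZT13 (0.691% of all genes), 5 at ZT14 (9.94%) and 0 at ZT22 (12.6%), where Tdo2 was at -0.45 (adjusted p = 0.114) and Got1 at -0.68 (adjusted p = 0.0562). Fed livers were all below unfed livers for 3 genes at ZT13 (9.24% of all genes did the same), 6 at ZT14 (14.9%), 7 at ZT18 (20.2%) and 2 at ZT22 (16.3%), and above them for 0 at every hour, against 8.15%, 12.8%, 19.7% and 16.6% of all genes in the order of the hours. Without the 2 libraries with transcripts of other tissues, 3 of the 5 calls at ZT18 held (19.2% of all genes), with Gpt2 at -0.43 (adjusted p = 0.0659) and Sds at -0.81 (adjusted p = 0.0515). The interaction of food and hour passed for 0 of 10 in edgeR (8.10% of all genes), for 3 at an unadjusted p under 0.05 and for 2 in DESeq2 (12.7% of all genes), Gls2 (adjusted p = 0.0463) and Tdo2 (adjusted p = 0.0486), so a difference between hours is not shown by the edgeR fit. The summed level of 10 endothelial markers at ZT18 was 278 to 300 CPM in fed livers, against 392 to 427 CPM in unfed livers, and 0 of the 10 were at 0. The fat list of 6 genes was at 24.0 to 25.2 CPM fed and 26.1 to 63.7 CPM unfed at that hour. At ZT22, where Tdo2 and Got1 passed, the endothelial list was at 350 to 375 CPM fed and 456 to 469 CPM unfed, the fat list at 14.4 to 20.7 CPM fed and 26.7 to 36.7 CPM unfed, and the pancreatic list of 9 genes at 28.3 to 33.8 CPM fed and 13.1 to 15 CPM unfed, with up to 7 of the 9 at 0 in a library. The part of these lists in the enzymes' change was not tested.

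Within fed livers 6 of 10 genes varied over ZT13 to ZT22 (37.2% of all genes did): Tdo2, Sds, Got1, Gpt2, Agxt and Aass. Tat (adjusted p = 0.355) and Hpd (adjusted p = 0.492) did not pass in fed livers. Within unfed livers 8 genes varied over ZT10 to ZT22 (42.5% of all genes), all but Gls2 (adjusted p = 0.186) and Oat (adjusted p = 0.427). In unfed livers hour and time since the last meal changed together and cannot be told apart. There was no fed group at ZT10, so the fed and unfed tests do not cover the same hours. The unfed means of Tat (1368 CPM) and Hpd (2154 CPM) were lowest at ZT10. In unfed livers Tat was at 1597, 1556 and 951 CPM at ZT10 and at 5372, 5474 and 4278 CPM at ZT13, and its mean was highest at ZT14. Sds and Got1 were highest on average in unfed livers at ZT13 (613 ± 46.0 and 732 ± 80.3 CPM, mean ± SD, n = 3). Agxt ran the other way, with 224, 257 and 300 CPM in unfed livers at ZT10 and 172, 119 and 122 CPM at ZT18. Agxt in fed livers was lost without ZT22 replicate 1 (adjusted p = 0.0671), Aass in fed livers without ZT22 replicate 1 (adjusted p = 0.0669) or 3 (adjusted p = 0.0865), and Hpd in unfed livers without ZT10 replicate 3 (adjusted p = 0.0514).

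The second experiment asks which of the enzymes depend on GR in hepatocytes. Nr3c1 itself was at 102 to 201 CPM in CRE livers, against 147 to 323 CPM in GFP livers, and fell by 0.63 ± 0.06 over the 6 times (adjusted p = 1.85e-09). Its groups did not overlap at any of the 6 times, while 6.13% (ZT22) to 11.0% (ZT12) of all genes were likewise all lower. The change of Nr3c1 passed at ZT10, ZT12, ZT13 and ZT14. It did not pass at ZT18 (-0.42 ± 0.14, adjusted p = 0.342) or ZT22 (-0.52 ± 0.14, adjusted p = 0.141). The ZT13 call (-0.48 ± 0.14, adjusted p = 0.0405) was lost in 5 of 6 fits that left out 1 library. The labels do not name the exons that CRE deletes, and reads outside them would remain in CRE livers.

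Averaged over 6 times, 6 of the 10 mRNAs were lower in CRE than in GFP livers and 1 was higher. Sds fell by 1.13 ± 0.13 (adjusted p = 3.66e-07), Got1 by 0.85 ± 0.15 (adjusted p = 0.000145) and Aass by 0.81 ± 0.10 (adjusted p = 3.38e-07). Tat fell by 0.59 ± 0.09 (adjusted p = 4.12e-05), Tdo2 by 0.42 ± 0.06 (adjusted p = 2.48e-05) and Gpt2 by 0.21 ± 0.06 (adjusted p = 0.0206). Oat rose by 0.57 ± 0.12 (adjusted p = 0.00138). Hpd (-0.19 ± 0.07, adjusted p = 0.0792), Gls2 (-0.08 ± 0.07) and Agxt (0.10 ± 0.08) did not pass. Of 15712 genes tested with edgeR 14.6% passed, 7.92% higher and 6.64% lower, and the median change was -0.0043 over all genes, against -0.31 for the 10. The 7 calls held in each of 36 fits that left out 1 library. The call of Gpt2 was lost (-0.17, adjusted p = 0.187) and 6 genes passed without the libraries in which a single row of the count table that matched no gene held over 20% of the counts. That fit has no GFP liver at ZT10, so its average covers the 5 other times, and its share of all genes is not given here. Hpd passed in 3 of the 36 fits, without CRE ZT18 replicate 1 (adjusted p = 0.0454), GFP ZT13 replicate 3 (adjusted p = 0.00903) or GFP ZT22 replicate 3 (adjusted p = 0.028).

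**Figure D2:**
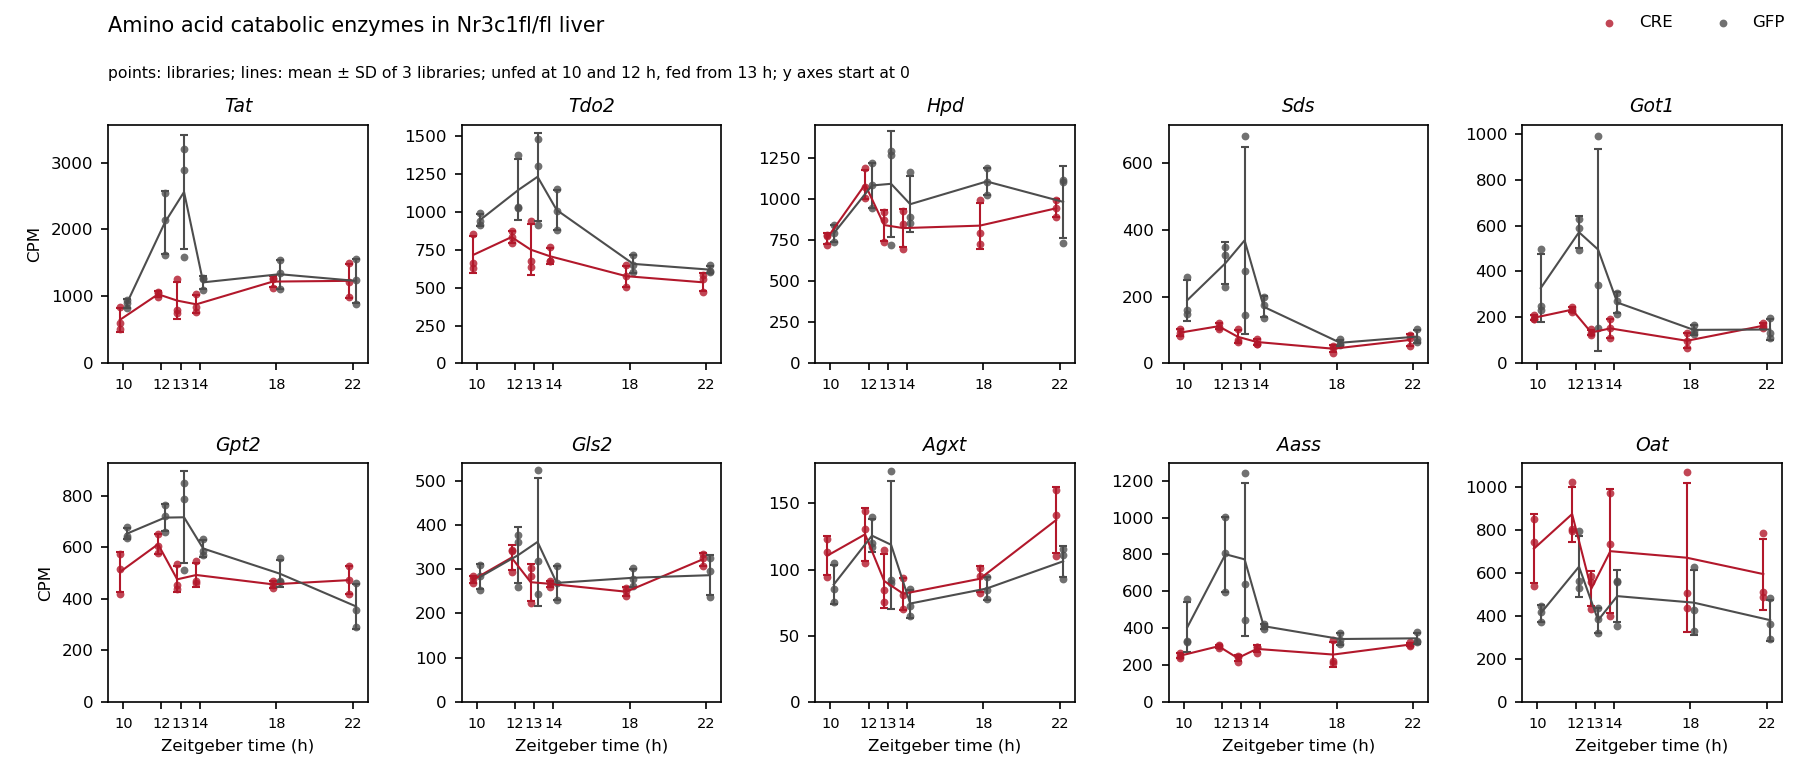
CPM of the 10 mRNAs in CRE and GFP livers of Nr3c1fl/fl mice against Zeitgeber time in hours, unfed at ZT10 and ZT12 and fed afterwards; points are libraries and lines join means ± SD of 3 libraries. In the panel of Aass the CRE livers stay between 213 and 336 CPM at all 6 times, while GFP livers reach 1002 CPM at ZT12 and 1241 CPM at ZT13.

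Sds was at 103, 65.3 and 71.2 CPM in fed CRE livers at ZT13, against 683, 278 and 146 CPM in fed GFP livers (-2.21 ± 0.34, adjusted p = 7.21e-05). Already in the unfed state at ZT12 it was at 109, 122 and 103 CPM in CRE livers, against 324, 349 and 229 CPM in GFP livers (-1.43 ± 0.33, adjusted p = 0.00868). At ZT14 it was at 58.4, 74.1 and 59.4 CPM in CRE livers, against 174, 136 and 199 CPM in GFP livers (-1.41 ± 0.33, adjusted p = 0.0232). The groups were apart at all 3 times and also at ZT10 and ZT18, and overlapped at ZT22. The ZT12 call was lost without GFP replicate 2 (adjusted p = 0.0571), and the ZT14 call was lost in 5 of 6 fits that left out 1 library, at adjusted p up to 0.123. Without GFP replicate 1 the ZT13 change was -1.43 and still passed.

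Got1 was at 147, 130 and 125 CPM in CRE livers at ZT13, against 992, 340 and 154 CPM in GFP livers (-1.88 ± 0.38, adjusted p = 0.00208). At ZT12 it was at 230, 246 and 225 CPM in CRE livers, against 630, 588 and 495 CPM in GFP livers (-1.29 ± 0.37, adjusted p = 0.0462). GFP replicate 1 at ZT13 was far above the other 2, and without it the change was -0.89 (adjusted p = 0.124), while the ZT12 call was lost in each of 6 fits that left out 1 library (adjusted p 0.0602 to 0.148). Gpt2 passed at ZT13 only among single times, at 439, 455 and 533 CPM in CRE livers against 788, 848 and 514 CPM in GFP livers (-0.59 ± 0.15, adjusted p = 0.0161), with overlap. This call was lost without CRE replicate 1 (adjusted p = 0.0893) or 2 (adjusted p = 0.0688) and without GFP replicate 1 (adjusted p = 0.108) or 2 (adjusted p = 0.143).

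Aass stayed within a narrow band in CRE livers. It was at 295, 303 and 310 CPM in CRE livers at ZT12, against 1002, 807 and 596 CPM in GFP livers (-1.41 ± 0.24, adjusted p = 0.000374), and at 245, 250 and 219 CPM in CRE livers at ZT13, against 1241, 637 and 443 CPM in GFP livers (-1.70 ± 0.24, adjusted p = 2.33e-05). Both calls held in each of 6 fits that left out 1 library. The ZT13 call was lost in a fit of the 2 compared groups alone (-1.69, adjusted p = 0.0965), and the ZT12 call without the libraries above 20% in the unmatched row (-0.97, adjusted p = 0.189). By ZT22 the levels were 308, 303 and 323 CPM in CRE livers and 333, 380 and 323 CPM in GFP livers. Its change over time did not pass in CRE livers (adjusted p = 0.58) and passed in GFP livers (adjusted p = 2.09e-05), and it was the 1 gene of the 10 whose interaction of virus and time passed in edgeR (adjusted p = 0.0431; 0.687% of all genes passed). That interaction was lost in 20 of 36 fits that left out 1 library (adjusted p up to 0.0849), with the share of the unmatched row as a covariate (adjusted p = 0.0577) and without the libraries above 20% (adjusted p = 0.0693).

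Tat was at 1052, 983 and 1060 CPM in CRE livers at ZT12, against 2148, 2550 and 1619 CPM in GFP livers (-1.03 ± 0.23, adjusted p = 0.00806). At ZT13 it was at 797, 753 and 1261 CPM in CRE livers, against 3204, 2887 and 1587 CPM in GFP livers (-1.45 ± 0.24, adjusted p = 0.000156). From ZT18 on the arms overlapped, at 1133, 1255 and 1275 CPM in CRE livers and 1103, 1540 and 1350 CPM in GFP livers at that hour. The ZT12 call was lost without GFP replicate 2 (-0.87, adjusted p = 0.0851). Tdo2 passed at ZT13, at 678, 634 and 943 CPM in CRE livers against 1308, 1480 and 913 CPM in GFP livers (-0.71 ± 0.16, adjusted p = 0.00515), where GFP replicate 3 lay below CRE replicate 3. This call was lost without CRE replicate 2 (adjusted p = 0.0504) or GFP replicate 2 (adjusted p = 0.0688). Hpd, the step after Tat, was at 1075, 1008 and 1188 CPM in CRE livers at ZT12 and at 1086, 1222 and 945 CPM in GFP livers.

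Oat alone was higher in CRE livers, by 0.47 to 0.79 at each of the 6 times, with no single time past the threshold (adjusted p 0.288 to 0.667). At ZT10 it was at 746, 539 and 854 CPM in CRE livers, against 372, 449 and 418 CPM in GFP livers. At ZT22 it was at 488, 785 and 513 CPM in CRE livers, against 365, 484 and 294 CPM in GFP livers. The arms were apart at these times and at ZT12, and overlapped at ZT13, ZT14 and ZT18. Gls2 was at 223 to 344 CPM in CRE livers, against 231 to 523 CPM in GFP livers, and Agxt at 70.1 to 160 CPM in CRE livers, against 64.6 to 174 CPM in GFP livers over the 6 times.

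Counted by time, 0 of 10 passed at ZT10 (0.694% of all genes, with 0.223% higher and 0.471% lower) and 4 at ZT12, all lower (3.75%, with 1.50% higher and 2.25% lower). At ZT13 6 passed, all lower (5.04%, with 1.89% higher and 3.15% lower), and at ZT14 1 passed, lower (1.57%, with 0.586% higher and 0.987% lower). At ZT18 0 passed (0.102%, with 0.0382% higher and 0.0636% lower), and at ZT22 0 (0.146%, with 0.0891% higher and 0.0573% lower). At an unadjusted p under 0.05 edgeR gave 5, 1 and 2 genes at ZT10, ZT18 and ZT22, and DESeq2 called 0 at each of these times. The share of all genes at that unadjusted threshold was not counted, for these times or for the interaction of virus and time. CRE livers were all below GFP livers for 5 genes at ZT10 (7.55% of all genes) and 6 at ZT12 (11.0%) in the unfed state. In the fed state they were so for 4 at ZT13 (10.9%) and 6 at ZT14 (9.52%), then for 3 at ZT18 (8.55%) and 2 at ZT22 (6.13%). In fits of the 2 compared groups alone 0 passed at ZT13 (0.372% of all genes), with adjusted p from 0.0965 (Aass) to 0.246 (Gpt2) and with Sds at -2.20 and Got1 at -1.87. Such fits called 1 gene at ZT10 (1.04%) and 2 at ZT14 (1.29%), and DESeq2 called 2 at ZT14 (2.65%). CRE livers were all above GFP livers for Oat at ZT10 (8.28%), ZT12 (11.9%) and ZT22 (6.32%). The interaction of virus and time passed for 4 genes in DESeq2 (2.56% of all genes), and at an unadjusted p under 0.05 for 5 in edgeR.

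**Figure D3:**
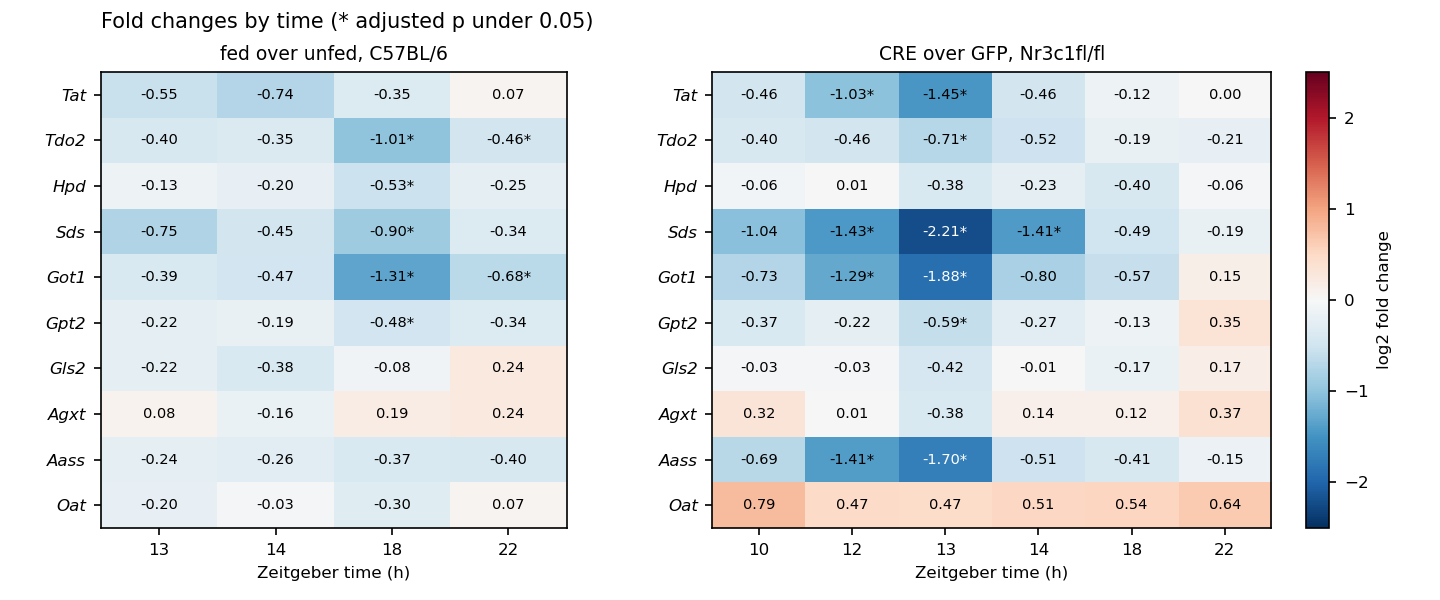
Log2 fold changes of the 10 mRNAs by Zeitgeber time in hours, fed over unfed on the left and CRE over GFP on the right; blue is lower and red higher in fed or CRE livers, and a star marks an adjusted p under 0.05. The cells with the lowest values are Got1 (-1.31) and Tdo2 (-1.01) at ZT18 for food and Sds (-2.21) and Got1 (-1.88) at ZT13 for CRE.

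Several library properties moved with these times. At ZT12 the unmatched row held 3.62% to 7.38% of the counts in CRE livers, against 22.9%, 24.5% and 4.52% in GFP livers, and at ZT10 it held 28.5%, 8% and 18.5% in CRE livers, against 23.8%, 27.4% and 28.2% in GFP livers. With the log2 of that share as a covariate 1 of the 4 calls at ZT12 held, that of Aass (1.46% of all genes), and without the libraries above 20%, which leaves 1 GFP liver at ZT12 that is assumed to vary like the other groups, 0 held (0.64%). Aass was then at -0.97 (adjusted p = 0.189) and Sds at -1.03 (adjusted p = 0.604). At ZT13 this share lay between 4.18% and 5.10% in CRE livers, against 2.30% to 4.55% in GFP livers. Summed hepatocyte markers at ZT12 were at 46725 to 52556 CPM in CRE livers, against 56168 to 68358 CPM in GFP livers, with 0 of 8 at 0, and at ZT13 at 48384 to 53027 CPM in CRE livers, against 52069 to 59735 CPM in GFP livers. The fat list of 6 genes, of which 3 passed the filter, summed to 23.6 to 26.6 CPM in CRE livers, against 38.3 to 61.2 CPM in GFP livers at ZT12, and to 20.9 to 34.6 CPM in CRE livers, against 49.1 to 89.8 CPM in GFP livers at ZT13. At ZT14 hepatocyte markers summed to 41434 to 44518 CPM in CRE livers, against 47730 to 57732 CPM in GFP livers, 10 Kupffer cell markers to 188 to 222 CPM, against 296 to 349 CPM, and the fat list to 19.5 to 21.6 CPM, against 25 to 33.5 CPM. Other lists were higher in CRE livers without overlap. At ZT12 red blood markers summed to 98.4 to 113 CPM, against 74.9 to 84.9 CPM, and lymphoid markers to 1.76 to 1.96 CPM, against 0.843 to 1.16 CPM. Kidney markers summed to 2.29 to 3.35 CPM, against 1.49 to 2.08 CPM, at ZT13. At ZT14 they summed to 4.27 to 4.99 CPM, against 1.46 to 3.21 CPM, with up to 4 of 5 at 0 in a library. The part of these markers in the enzymes' change was not tested.

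The 3 fed GFP livers at ZT13 spread widely, and the cause of this spread was not tested. Replicate 1 was the highest of the 3 for 7 of the 10 genes and replicate 3 the lowest for 8. Igfbp1, an mRNA that insulin represses, chosen after its values were seen, was at 2.73, 1.04 and 1.55 CPM in CRE livers, against 62.4, 19.1 and 3.40 CPM in these GFP livers, the order that Sds, Got1, Aass and Tat also had. Fkbp5, a gene that GR induces, chosen in the same way, was at 52.1, 69.4 and 31.7 CPM in CRE livers, against 469, 733 and 356 CPM in GFP livers. Its order in GFP livers was another, which Tdo2 and Gpt2 also had. Pck1, looked at beside them, was at 1895, 1618 and 2255 CPM in CRE livers, against 4305, 3938 and 2365 CPM in GFP livers. An order of 3 libraries can match without any link, and a link of these genes to the enzymes was not tested. Without GFP replicate 3 the edgeR interaction of virus and time passed for 5 of the 10 genes (1.67% of all genes, against 0.687% with it). Among them were Sds (adjusted p = 0.00445), Tat (adjusted p = 0.00763), Got1 (adjusted p = 0.0149) and Gpt2 (adjusted p = 0.016). Leaving out the lowest library raises the GFP mean at ZT13 by construction, so this gain in calls is no separate evidence of an interaction. It was also the highest count over the 36 fits that left out 1 library (0 to 5).

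Over the 6 times 4 of the genes varied in CRE livers (41.5% of all genes) and 7 in GFP livers (46.9%), and in this design hour and food state cannot be told apart. Those of CRE livers were Tat, Tdo2, Sds and Agxt, and those of GFP livers were Tat, Tdo2, Sds, Got1, Gpt2, Agxt and Aass. In CRE livers the means of Tat ran from 648 ± 175 CPM at ZT10 to 1232 ± 258 CPM at ZT22 (mean ± SD, n = 3). In GFP livers Tat averaged 2106 ± 467 CPM at ZT12 and 2559 ± 857 CPM at ZT13, and at ZT14 it was at 1268, 1096 and 1265 CPM. In CRE livers the call of Tat was lost without ZT10 replicate 1 (adjusted p = 0.0574) or 2 (adjusted p = 0.0863), that of Sds without ZT12 replicate 2 (adjusted p = 0.0586) or ZT18 replicate 3 (adjusted p = 0.0932), and that of Agxt without ZT22 replicate 2 (adjusted p = 0.0514). Without the libraries above 20% in the unmatched row the calls of Tat in CRE livers (adjusted p = 0.0796) and of Agxt in GFP livers (adjusted p = 0.0582) were lost.

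**Figure D4:**
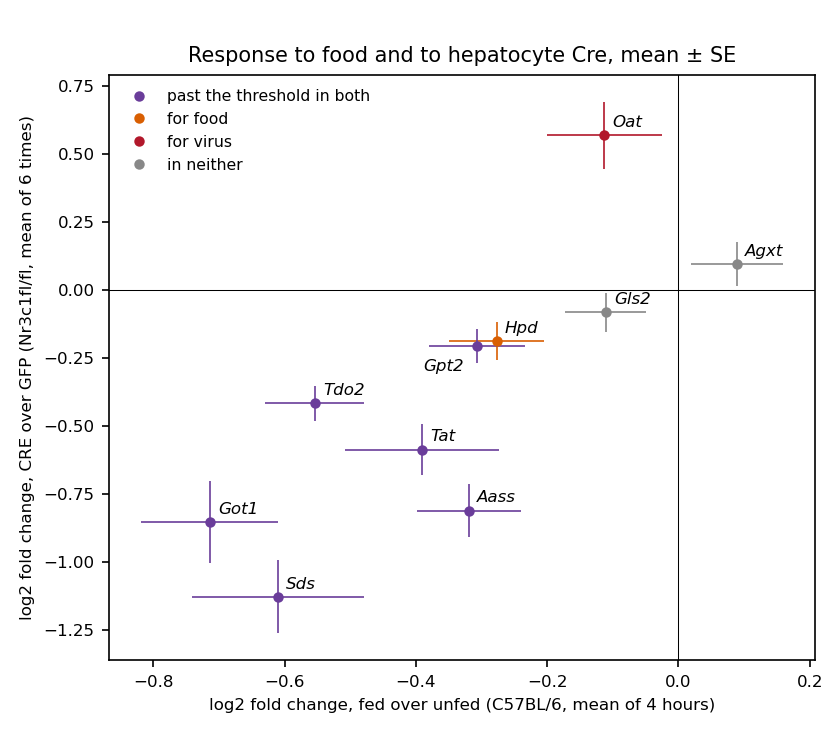
Log2 fold change ± SE of each mRNA for food (fed over unfed, C57BL/6, mean of 4 hours) on the x axis and for virus (CRE over GFP, Nr3c1fl/fl, mean of 6 times) on the y axis. Tat, Tdo2, Sds, Got1, Gpt2 and Aass lie at the lower left, past the threshold in both, Gpt2 for virus not without the libraries above 20% in the unmatched row (adjusted p = 0.187). Oat stands at the upper left, at -0.11 for food and 0.57 for virus.

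Side by side, 6 genes were lower both in fed than unfed C57BL/6 livers and in CRE than GFP livers of Nr3c1fl/fl mice: Tat, Tdo2, Sds, Got1, Gpt2 and Aass. The call of Gpt2 for virus was lost without the libraries above 20% in the unmatched row (adjusted p = 0.187). Hpd passed for food, Oat passed for virus and was higher there, and Gls2 and Agxt passed in neither average. The strains and library types differ between the experiments, and whether a gene's 2 changes differ was not tested. Between the hours shared by both, the largest changes stood at ZT18 for food, where Got1 was at -1.31 and Tdo2 at -1.01, and at ZT13 for virus, where Sds was at -2.21 and Got1 at -1.88. At ZT18 the virus changes of Got1 (-0.57) and Tdo2 (-0.19) did not pass, and at ZT13 the food changes of Sds (-0.75) and Got1 (-0.39) did not pass.

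Of 62 other amino acid catabolic genes listed by pathway, 60 were tested. For food 9 were higher, 13 lower and 38 did not pass, which is 36.7% called, against 35.4% of all genes, with a median change of -0.012. Higher in fed livers were Qdpr (0.37 ± 0.05, adjusted p = 2.53e-06) and Pcbd1 (0.33 ± 0.04, adjusted p = 4.4e-07), which recycle the biopterin cofactor of phenylalanine hydroxylase. Gcat (0.26 ± 0.05) of threonine breakdown and Haao (0.26 ± 0.05) of the kynurenine pathway were higher too. Lower were Cdo1 (-0.53 ± 0.07, adjusted p = 2.22e-06), the cysteine dioxygenase, and Dhtkd1 (-0.45 ± 0.06, adjusted p = 1.26e-06) and Aadat (-0.26 ± 0.05), both of lysine breakdown after Aass. Bckdha, a subunit of the branched-chain ketoacid dehydrogenase, was lower by a change of -0.26 ± 0.05. At ZT22 the list counted 18 higher (10.5% of all genes) and 4 lower (9.77%) with a median of 0.13, and at ZT18 7 higher (13.3%) and 6 lower (13.1%) with a median of -0.023.

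In CRE livers 5 of the 60 were higher (7.92% of all genes) and 11 lower (6.64%), with a median change of -0.012. Gldc, of the glycine cleavage system, fell by 1.10 ± 0.11 (adjusted p = 2.59e-08) and Sdsl, a relative of Sds, by 0.96 ± 0.14 (adjusted p = 8.96e-06). Cdo1 fell by 0.63 ± 0.08 (adjusted p = 9e-07) and Prodh, the proline dehydrogenase, by 0.56 ± 0.08 (adjusted p = 1.66e-05). Gldc averaged 75.5 ± 19.0 CPM in CRE livers at ZT13, against 284 ± 113 CPM in GFP livers, and 145 ± 18.3 CPM in CRE livers at ZT18, against 267 ± 12.6 CPM in GFP livers (mean ± SD, n = 3). Higher were Aspg, an asparaginase (0.30 ± 0.06), Aldh4a1 of proline breakdown (0.24 ± 0.05), Gcat (0.24 ± 0.05) and Hoga1 of hydroxyproline breakdown (0.18 ± 0.04), with adjusted p of 0.000512, 0.000931, 0.00215 and 0.00455 in this order.

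The peaks of GR found in both replicates at ZT10, 5772 regions of 209 bp, were set beside the gene intervals. Each of them stands with the same start and end in the list called against CRE chromatin, and 0 in the list called against input. In the labels the descriptions of the C57BL/6 GR and input libraries carry interchanged numbers, so the lists are taken as their titles name them. A peak lay within 25 kb of the interval of 7 of the 10 genes, against 29.5% of 14638 genes tested in both experiments, and the counts were 7 (21.9%) within 10 kb and 9 (53.9%) within 100 kb. Got1 had 3, the nearest at chr19:43524929-43525137, 0.4 kb before its annotated start. Tat had 4, among them chr8:109987836-109988044, 2.5 kb before the start of its transcript and inside the wider gene interval. Gpt2 had 5, of which 2 lay inside the gene, 33.5 and 36 kb after the start. Aass had 1 in the gene, at chr6:23126671-23126879, 6.2 kb after the start, and 1 at 11.2 kb before it. Sds had its nearest peak 3.5 kb outside the gene, Hpd 3.5 kb before the start, and Gls2 a peak inside the gene.

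Tdo2 had its nearest such peak 46.9 kb before the start and Oat 35.3 kb before it, and for Agxt the nearest was 286.8 kb outside the gene. So 5 of the 6 genes that were lower in CRE livers had a peak of this list within 25 kb, all but Tdo2. Hpd and Gls2, which did not pass, had one too. The share among all genes lower in CRE livers is not given here. The lists called against input (23683 peaks) and against CRE chromatin (18543 peaks) are longer. They had a peak within 25 kb of 9 of 10 genes each, against 63.4% and 72% of genes. Tdo2 was among the 9 in both lists. None of the peaks found in both replicates overlapped the promoter window of any of the 8 genes, whereas a peak called against input overlapped those of Tdo2 and Aass and a peak called against CRE chromatin that of Agxt, at chr1:93135224-93135432. The lists carry no height, so strength of binding could not be compared.

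**Figure D5:**
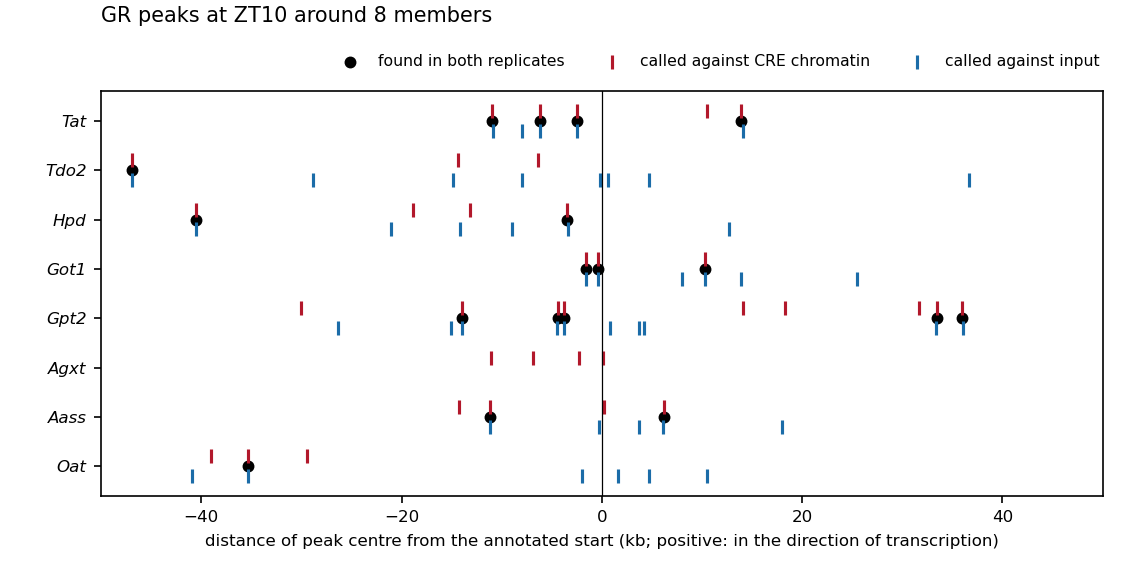
GR peaks at ZT10 by distance of the peak centre from the annotated start in kb, for the 8 genes with an annotated start in the promoter table; circles are peaks found in both replicates, red ticks those called against CRE chromatin and blue ticks those called against input. The circles of Got1 and Tat lie nearest to the start, 0.4 and 2.5 kb before it, and Agxt has none within the range drawn.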

How the data were processed

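RNA was measured in 63 mouse livers and GR binding at ZT10. Per experiment the authors deposited raw counts of each RefSeq transcript. The submitters' processing notes name STAR, HOMER, DESeq2 and mm10 but neither version nor role. Peak lists hold chromosome, start and end as deposited, and starts were read as counting from 0. The labels do not say whether counting used strand, and overlapping antisense genes cannot be told apart. Of counts between 1 and 10 in a library, 75.7% to 85.1% are even.

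Transcripts were matched by accession to the GRCm38.p6 gene table (40219 of 40458 rows, 24790 genes), and unmatched rows, 0.308% to 28.6% of a library's counts, stayed out of totals and tests. Gls2 and Agxt had more than 1 row. Tests used the quasi-likelihood F-test of edgeR 4.0.16 under R 4.3.3 (TMM factors, filterByExpr by group, Benjamini-Hochberg over all genes), with 1 fit per experiment over all its groups. Standard errors divide the change by the root of F, and all p-values are two-sided or from F-tests. The fit was tested on simulated counts.

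Alternatives were DESeq2 1.42.0, its size factors, no filter, a replicate block, the second transcript row, the compared groups alone, a share covariate, and leaving out libraries. Same-numbered libraries did not deviate together (30 pairs, correlations -0.14 to 0.127). The members and lists were chosen with earlier results of these data known. Named are all 10 members, Nr3c1 and, of 62 other genes, up to 4 per direction with the smallest adjusted p in each averaged comparison.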

Additional observations from a re-analysis of the deposited data

Results flagged for a closer look

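The effect of CRE on Aass differed between times by the test of the interaction of virus and time (edgeR, adjusted p = 0.0431, over 36 libraries). The change was -1.41 at ZT12 and -1.70 at ZT13, against -0.15 at ZT22, and it was below 0 at each of the 6 times. Leaving out 1 library gave adjusted p-values of 0.00133 to 0.0849, and 20 of 36 such fits missed the threshold.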

How the results depend on the processing

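The averaged counts were 7 for food and 7 for virus in every alternative run, except 6 for virus without the libraries above 20%, where GFP at ZT10 has no library left and 5 times are averaged, and 7 to 8 for virus when 1 library was left out. Counts at single times moved more, here with the share of all genes in parentheses. Counts from fits that left out 1 library stand without that share, so their movement is not set against that of all genes. The same holds for the averaged counts in the alternatives. It also holds for the count of the other listed genes, which was 16 of 60 for virus in the main fit. With the 2 compared groups alone, 1 gene passed for food at ZT13 (0.691%), 5 at ZT14 (9.94%) and 0 at ZT22 (12.6%), and for virus 1 at ZT10 (1.04%), 0 at ZT13 (0.372%) and 2 at ZT14 (1.29%). DESeq2 gave 2 for the interaction of food and hour (12.7%), 4 for that of virus and time (2.56%) and 2 for virus at ZT14 (2.65%). Without the libraries with transcripts of other tissues 3 passed for food at ZT18 (19.2%). The share covariate gave 1 for virus at ZT12 (1.46%) and 0 for the interaction of virus and time (0.49%), and leaving out libraries above 20% gave 0 for both (0.64% and 0.347%), and 10 of the other listed genes for virus in the average, where Gpt2 was at -0.17 (adjusted p = 0.187). Leaving out 1 library gave 2 to 5 for food at ZT18, 0 to 4 at ZT22, 0 to 1 for its interaction with hour, 1 to 3 for virus at ZT12, 4 to 8 at ZT13, 0 to 1 at ZT14 and 0 to 5 for its interaction with time. The cause was not tested beyond the fewer libraries in these fits. The replicate block changed no call among the 10 genes and gave 7 for food and 7 for virus in the averages; the numbers were shared without pairing, since 0 of 10 comparisons had all 3 correlations over 0.1. No change that passed reversed its sign in any alternative run. Depth limits no value of these genes, and 3 libraries a group limit the single times.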

Other observations

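At ZT22 Tat was at 2175, 3273 and 2122 CPM in fed C57BL/6 livers, against 1879, 1766 and 3551 CPM in unfed livers, in the order of the replicates. Gpt2 was at 492, 546 and 484 CPM in fed livers, against 475, 616 and 838 CPM in unfed livers, where Sds was at 113, 187 and 283 CPM. Unfed replicate 3 at that hour was the highest of its 3 libraries for 9 of the 10 enzymes and unfed replicate 1 the lowest for 9. Without unfed replicate 3 the food count at ZT22 was 0, and without unfed replicate 1 it was 4. With all libraries it was 2 (20.2% of all genes). The share of all genes without either library is not given here, so this movement is not shown to be particular to the enzymes. In fed livers at ZT14, replicate 1, the library with bile duct markers, was the lowest for 9 of the 10.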
